A study of Caenorhabditis elegans with 2 samples.

Results

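The 73 genes described here encode translation factors and aminoacyl-tRNA synthetases of Caenorhabditis elegans. They were taken by symbol alone from 19973 nuclear protein-coding genes. Symbols that start with eif-, eef-, erfa-, iff-, ife-, ifg- or ifet- gave 42 translation factors, and symbols of 1 letter followed by ars-1 or ars-2 gave 31 synthetases. The data are peak lists from chromatin immunoprecipitation followed by sequencing (ChIP-seq) of whole young adult hermaphrodites of strain OP478, taken 64 h after synchronization as starved L1 larvae. The strain carries the mutation unc-119(tm4063) on chromosome III and the transgene wgIs478, in which GFP-FLAG is joined to the C terminus of the product of T07F8.4. Both samples come from this 1 transgenic line, and no label names the promoter of the transgene. Chromatin was recovered with an antibody against GFP. There is 1 group, with 2 biological replicates. Untagged animals and other strains were not analysed here, so the values describe these animals and are not a comparison between conditions. In whole animals, a region held in few cells and a weak region held in many cannot be told apart.

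Initiation factors bring the initiator tRNA, the mRNA and the small ribosomal subunit together at the start codon. Elongation factors deliver aminoacyl-tRNAs and move the ribosome along the message, and release factors end synthesis at the stop codon. Aminoacyl-tRNA synthetases charge each tRNA with its amino acid. The tRNAs themselves are made by RNA polymerase III, whereas all 73 genes here encode proteins and are transcribed by RNA polymerase II. Many worm mRNAs are trans-spliced to a short leader, so an annotated transcript start can lie downstream of the place where transcription begins.

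Each gene was given at most 1 summit, the peak position of a region in the authors' lists. This was the reproducible summit with the highest signal value within 1000 bp of any annotated transcript start of the gene or, where there was none, the best summit of the pooled list. The pooled list joins both replicates and holds 16958 regions, ranked here by the signal value that the authors' peak caller gave each region. Its 621 highest regions make up the authors' reproducible list, selected by the irreproducible discovery rate (IDR), which ends at a signal value of 68.23. The nuclear reproducible regions had a median signal value of 90.75, and the highest nuclear value was 364.2. No label or file states the scale of the signal value, so values are compared mainly within 1 list. Where values of both replicate lists are set side by side, a shared scale is assumed and was not checked. Read depth is unknown.

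A reproducible summit was found at 6 of the 73 genes, or 8.22%. The same rule gave 401 of the 19973 nuclear protein-coding genes, or 2.01%. The 6 genes were eif-3.C, ears-2, iff-2, ifet-1, eef-1G and eif-2Bgamma. The sequences at 5 of these summits are shown so that their letters can be set beside the motif counts. That of eif-3.C is named only. Each is read 5′ to 3′ on the strand of the gene from build ce11 and covers the part of the window from 50 bp before to 50 bp after the summit that lies outside annotated UTRs. Capitals mark ACGCGC on either strand, and likewise the motif GGCGCA and the motif ACGCTC.

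ears-2, chrIV:390469-390535, minus strand: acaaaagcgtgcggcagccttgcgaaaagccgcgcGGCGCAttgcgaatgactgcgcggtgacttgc
iff-2, chrII:8561368-8561467, minus strand: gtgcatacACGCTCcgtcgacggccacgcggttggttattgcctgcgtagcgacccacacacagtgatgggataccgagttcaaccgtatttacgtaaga
ifet-1, chrIII:4475571-4475671, minus strand: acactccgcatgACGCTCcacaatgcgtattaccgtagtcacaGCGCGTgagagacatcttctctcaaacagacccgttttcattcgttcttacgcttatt
eef-1G, chrV:10965682-10965718, plus strand: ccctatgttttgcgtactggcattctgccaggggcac
eif-2Bgamma, chrII:6968282-6968382, minus strand: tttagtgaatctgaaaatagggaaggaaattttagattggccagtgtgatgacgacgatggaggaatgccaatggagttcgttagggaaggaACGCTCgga

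The summit is base 51 of each sequence other than that of eef-1G, which ends at the base before the annotated start, while its summit lies 13 bp inside the gene. Over the full windows, printed or not, ACGCGC was present at eif-3.C, ears-2 and ifet-1, that is at 3 of the 6 genes. It was present at 7 of the 54 genes with any pooled summit (13%), at 3.42% of the 16935 nuclear pooled regions and at 10.8% of the 600 nuclear reproducible regions. ACGCTC was present at iff-2, ifet-1 and eif-2Bgamma, at 4 of the 54 genes (7.41%), at 2.75% of the pooled regions and at 11.8% of the reproducible ones. At least 1 of these 2 motifs was thus at 5 of the 6 summits, at 10 of the 54 (18.5%), at 6.06% of the nuclear pooled regions and at 21.8% of the nuclear reproducible ones. At the 303 reproducible summits given to coding genes by the same rule the shares were 13.2% for ACGCGC, 12.5% for ACGCTC and 25.1% for at least 1 of them. ACGCTC and this pairing were chosen after the windows were seen. GGCGCA was at eif-3.C and ears-2, at 3 of the 54 genes (5.56%), at 3.75% of the pooled regions and at 10.7% of the reproducible ones. Both strands were searched, and ACGCGC and GGCGCA can overlap. The 54 summits are the assigned ones near starts, whereas the pooled regions lie anywhere in the nuclear genome, so these shares come from unlike sets.

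GTTCGA, the core of the internal B box at which tRNA genes recruit RNA polymerase III, was at none of the 6 summits and at 1 of the 54, that of eif-1. It was in 5% of the nuclear pooled regions, in 21.5% of the nuclear reproducible ones and in 15.2% of the 303 reproducible summits given to coding genes by the same rule. The longer GTTCGANNC, which contains it, was at none of the 54 summits, against 2.17% of the pooled regions, 17% of the reproducible regions and 10.6% of those 303 summits. TATAAA was at none of the 6 summits, at 8 of the 54 (14.8%), at 11% of the pooled and at 6.5% of the reproducible regions. CACTCG was at 1 of the 6, that of eif-3.C, at 2 of the 54 (3.7%), at 3.22% of the pooled and at 12% of the reproducible regions. GC content of the windows had a median of 51% at the 6 genes and of 43.6% at the 54 genes (range 20.8% to 60.4%), against 40.6% over the pooled and 50.5% over the reproducible nuclear regions. A match describes the letters of a window and is not a binding site.

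The strongest summit of the set was at eif-3.C, which encodes subunit C of eIF3, the large complex that holds the small ribosomal subunit ready for the mRNA. It lay 241 bp upstream of the start, on chromosome I at position 9979903, outside any coding gene, with a pooled signal value of 132.5 and rank 113. The replicate lists gave 74.41 (rank 102) in replicate 1 and 59.64 (rank 156) in replicate 2, with summits 2 and 22 bp from the pooled one. No other annotated start lay within 1000 bp. Of the 11 eIF3 genes, 8 had a pooled summit, and the other 7 stood far lower, from 20.21 at eif-3.G to 39.72 at eif-3.E. The eif-3.E summit (rank 2070) lay 222 bp upstream, with 30.40 in replicate 1 and no summit in the start window in replicate 2. No pooled summit was found at eif-3.F, eif-3.H or eif-3.L.

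The second strongest was at ears-2, annotated in RefSeq as a mitochondrial glutamyl-tRNA synthetase, 17 bp upstream of its start on chromosome IV at position 390485. Its pooled signal value was 121.1 (rank 151), with 61.96 (rank 176) in replicate 1 and 58.73 (rank 167) in replicate 2. The replicates placed it at nearly the same rank, and their summits lay 10 and 13 bp from the pooled one. The coding gene uncp-18 starts on the other strand 75 bp from this summit, so the summit lies upstream of starts on both strands. The third was at iff-2, which encodes eIF5A, a factor that helps the ribosome through peptide bonds that form slowly. It lay 50 bp upstream of the start, on chromosome II at position 8561417, with a pooled signal value of 105.8 (rank 217). The replicates gave 63.24 (rank 166) in replicate 1 and 40.63 (rank 426) in replicate 2, with summits 0 and 1 bp away. This was a wider gap in rank than at eif-3.C or ears-2. The other eIF5A gene, iff-1, known for its role in the germline, had a summit 36 bp upstream with 43.70 (rank 1634), below the reproducible list, and with 20.17 in replicate 1 and 21.19 in replicate 2.

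At ifet-1 and eif-2Bgamma the assignment to the gene is less direct. The product of ifet-1 is a translational repressor that binds the cap-binding factor eIF4E. Its summit lay 471 bp upstream on chromosome III at position 4475621, with a pooled signal value of 81.57 (rank 418), 44.22 in replicate 1 (rank 431) and 39.08 in replicate 2 (rank 461). The start of the ribosomal protein gene rps-1 on the other strand was closer, at 297 bp, and those of the ncRNA genes F56F3.11 and F56F3.10 were at 36 and 45 bp. The product of eif-2Bgamma is a subunit of eIF2B, the exchange factor that recharges eIF2 with GTP. Its summit lay 684 bp upstream on chromosome II at position 6968332, inside the coding sequence of the neighbouring gene C15F1.5. The pooled signal value was 72.80 (rank 534), with 44.85 in replicate 1 (rank 414) and 31.24 in replicate 2 (rank 841), at summits 0 and 92 bp away. A piRNA gene and the ncRNA gene C15F1.14 started 6 and 60 bp from this summit, and the snRNA gene sup-39 lay 62 bp from it. Of the other 4 eIF2B subunit genes, 3 had a pooled summit, with signal values of 22.95 to 30.30.

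The remaining gene, eef-1G, encodes the gamma subunit of the exchange factor that recycles eEF1A. Its summit lay 13 bp inside the start, in an annotated UTR, on chromosome V at position 10965732, with a pooled signal value of 72.88 (rank 533). Replicate 2 had a summit 18 bp away with 40.21 (rank 438). Replicate 1 had none within 100 bp, and its nearest, at 230 bp, had 40.38. That replicate 1 summit lay 14 bp from another pooled summit, at position 10965948 (33.82, rank 3099), 25 bp upstream of another of the 5 starts of eef-1G. The replicates thus marked different positions near its starts. The same gene held further reproducible summits. One at position 10966827 (69.32, rank 600) lay inside the intronic snoRNA gene F17C11.15, with 41.05 in replicate 1 and 33.63 in replicate 2. Another at position 10967880 (86.14, rank 374) lay in a UTR of eef-1G, 264 bp from the snoRNA gene F17C11.14, with 46.27 in replicate 1 and 36.65 in replicate 2. The highest reproducible value within eef-1G was therefore not the one at its start.

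**Figure D1:**
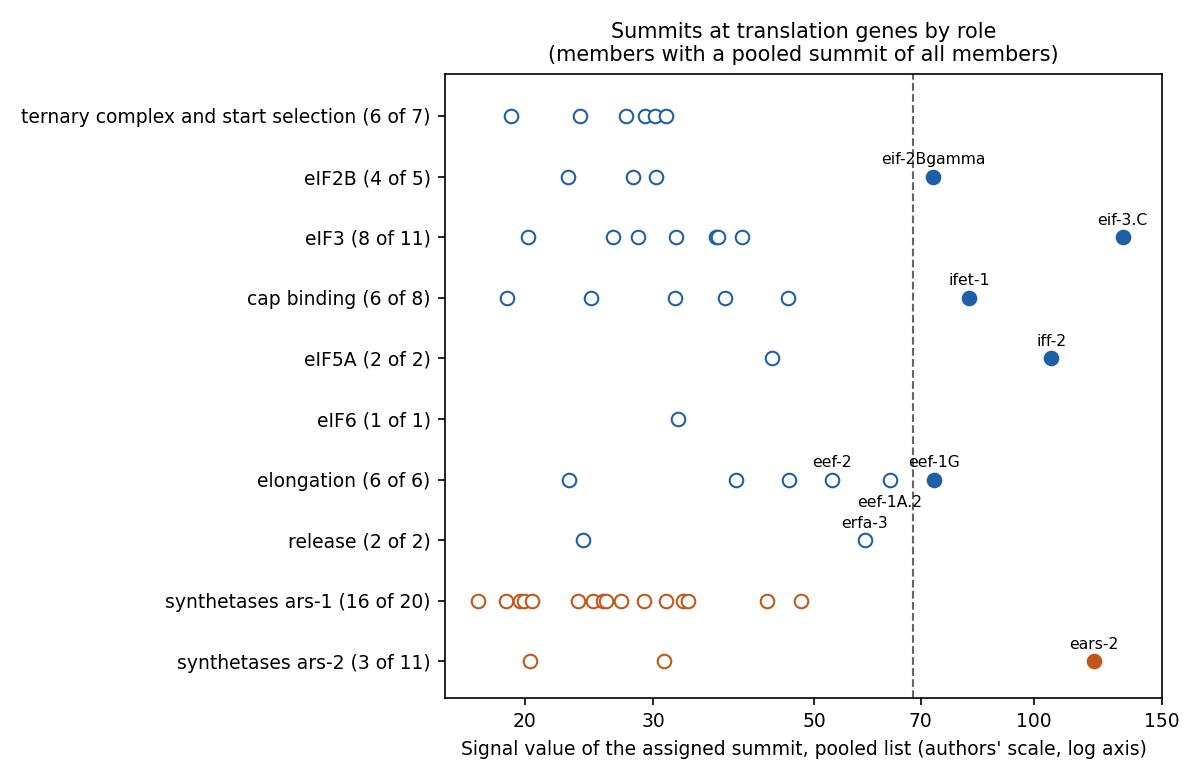
Signal value in the pooled list (log axis, authors' scale) of the summit given to each gene, by role as grouped from the symbol. Filled points are in the reproducible list, open points are not, and the dashed line marks its lowest value, 68.23. Blue points are translation factors and orange points synthetases, each point is 1 gene, and the labels give how many genes of each role had a pooled summit, from 3 of 11 for the ars-2 synthetases to 6 of 6 for elongation factors.

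Just outside the reproducible list stood eef-1A.2, an eEF1A gene whose product delivers aminoacyl-tRNAs to the ribosome. Its summit lay 366 bp upstream with a pooled signal value of 63.52 (rank 725), and 35.66 in replicate 1. In replicate 2 the best summit of the start window was 117 bp away, with 27.59. The paralog eef-1A.1 had 46.15 (rank 1460) at a summit 424 bp upstream, with 17.89 in replicate 1 and 27.87 in replicate 2. That summit was closer to the start of the DNA replication factor gene rfc-4 on the other strand, at 117 bp. At eef-2, whose product moves the ribosome to the next codon, the summit lay 17 bp upstream with 52.88 (rank 1061), 17.79 in replicate 1 and 31.96 in replicate 2. At eef-1B.1 it lay 27 bp inside the start with 38.97 (rank 2168), 17.34 in replicate 1 and 21.76 in replicate 2. All 6 elongation factor genes had a pooled summit, and their median signal value was 49.52, against 30.69 over the 54 genes with a summit and 25.99 over the 7353 coding genes with one.

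Of the release factors, erfa-3, the GTPase partner of the stop codon reader, had a summit 294 bp upstream with a pooled signal value of 58.61 (rank 858). Replicate 1 gave 39.53 (rank 570) and replicate 2 only 18.29 (rank 3670), so its place rests mainly on replicate 1. The gene of the stop codon reader itself, erfa-1, had 24.01 (rank 7581) at 790 bp inside a start, with no match within 100 bp in either replicate list. Of the 8 genes grouped by symbol with the cap-binding factors, 6 had a pooled summit. The group takes in eif-4A3 (37.71) by its prefix alone. Next to ifet-1 came ife-1, an eIF4E gene, with 45.93 (rank 1478) at 507 bp upstream, inside the coding sequence of dro-1, and with 22.34 in replicate 1 and 19.18 in replicate 2. The scaffold gene ifg-1 had 24.64 at 724 bp inside a start, and ife-2 and ife-5 had no pooled summit. Of the 7 genes grouped by symbol under ternary complex and start selection, 6 had a pooled summit and none exceeded 31.22, the value at eif-1. This group takes in eif-2A and eif-2D by symbol alone. The sole eIF6 gene, eif-6, had 32.47 with no match in either replicate list within 100 bp.

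Among the synthetases, 19 of 31 genes had a pooled summit (61.3%) and ears-2 alone had a reproducible one (3.23%). Among the translation factors the counts were 35 of 42 (83.3%) and 5 (11.9%). Over all coding genes the shares were 36.8% and 2.01%, so the reproducible share of the synthetases rests on 1 gene and is near that of all coding genes. A pooled summit was found at 16 of the 20 ars-1 genes (80%) and at 3 of the 11 ars-2 genes (27.3%), which were ears-2, yars-2 and aars-2. In the pooled list the ars-1 share lay above the 36.8% of all coding genes and the ars-2 share below it. The replicate lists did not repeat this order. A summit in both, not always the same one, was found at 11 of the 20 ars-1 genes (55%) and 5 of the 11 ars-2 genes (45.5%). Each of these shares lay above the 25.2% of all coding genes. The suffix does not give the compartment, since RefSeq names the product of aars-2 as cytoplasmic. The highest ars-1 values were those of qars-1, for glutamine, and vars-1, for valine. At qars-1 the summit lay in an intron of the gene, 322 bp upstream of the nearest of its 4 starts and 8 bp from the start of a microRNA gene, with a pooled signal value of 47.92 (rank 1327), 21.56 in replicate 1 and 29.75 in replicate 2. At vars-1 it lay 282 bp upstream, in a UTR of the neighbouring gene oma-2, with 43.05 (rank 1698) and 26.33 in replicate 1, and without a match within 100 bp in replicate 2. The other 14 ars-1 genes with a summit ran from 17.22 at ears-1 to 33.55 at aars-1, all at or below a rank of 3159.

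Any pooled summit was found at 54 of the 73 genes, or 74%, against 7353 of the 19973 coding genes, or 36.8%. The 54 summits were all distinct. Their signal values ran from 17.22 to 132.5, and their median rank was 3994.5, against 6214 over all coding genes with a pooled summit. Of the 54, 13 had a rank of 1695 or better (24.1%), against 16.7% of all coding genes with a summit, and 29 a rank of 4239 or better (53.7%), against 37.2%. A summit within 1000 bp of a start was found in both replicate lists at 44 of the 73 genes (60.3%), against 25.2% of all coding genes. The 2 lists need not hold the same summit there. The assigned summit was matched within 100 bp in both at 20 of the 73 genes (27.4%), against 12.8% of all coding genes. Among genes with a pooled summit this was 20 of 54, against 2561 of 7353, which are similar shares. The authors' q-values, given as −log10, were weak for most of the 54 summits. They ran from 2.92 at eif-3.C to 1.31 at eif-3.I (rank 2548), and every summit of a worse rank had less, down to 0.0230 at ears-1. The median rank of the 54 lies beyond that of eif-3.I. The authors describe the pooled and replicate lists as peaks and background, so a region there is not a call of binding.

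The genes had more annotated starts than most, and more starts give more windows in which a summit can fall. Several starts were annotated for 39 of the 73 genes (53.4%), against 27.4% of all coding genes. Among genes with 1 start, a pooled summit was found at 24 of 34 (70.6%), against 31.5% of such coding genes, and a reproducible one at 4 (11.8%), against 1.59%. Among genes with several starts, the shares were 30 of 39 (76.9%), against 50.8%, for a pooled summit, and 2 (5.13%), against 3.12%, for a reproducible one. The pooled share thus exceeded that of all coding genes in each class.

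**Figure D2:**
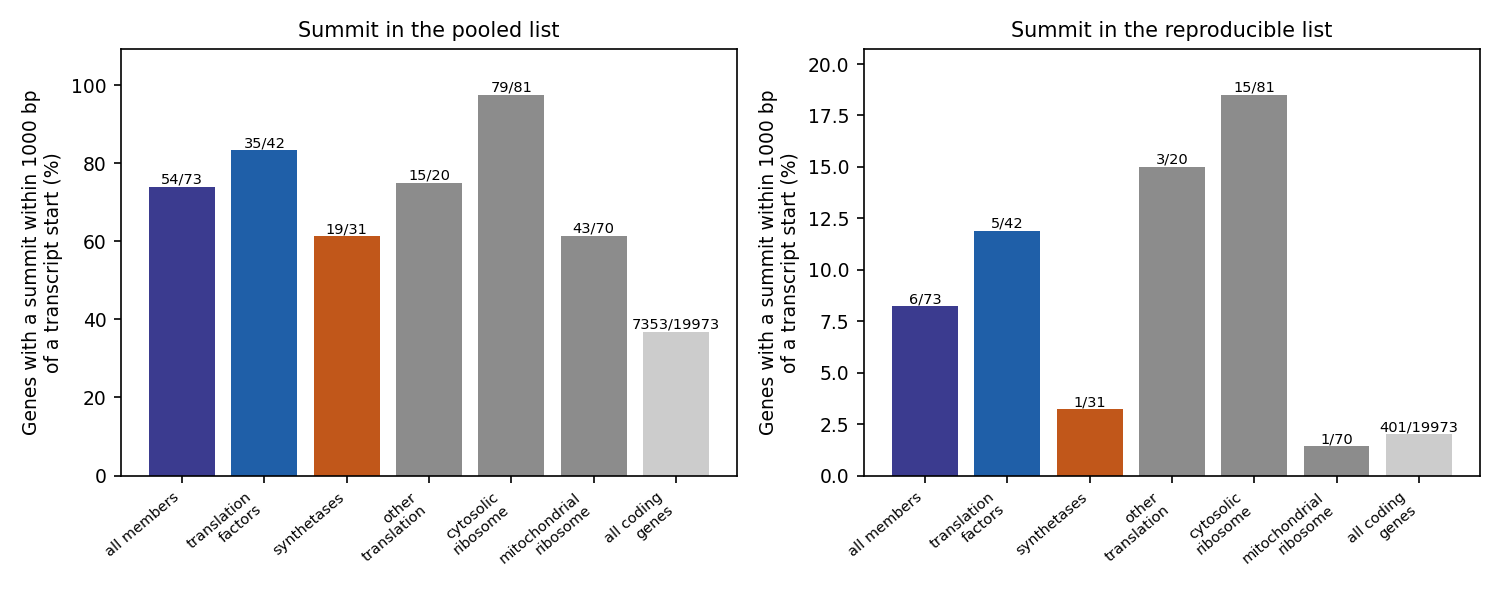
Genes (%) whose start windows of 1000 bp held a summit in the pooled list (left) and the reproducible list (right), with the counts above each bar. All members, the 73 genes, stood at 74% and 8.22%, against 36.8% and 2.01% of all nuclear coding genes, and the cytosolic ribosomal protein genes had the highest share in each panel.

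Genes of related function were set beside them by count only. Of the 81 cytosolic ribosomal protein genes, 79 had a pooled summit (97.5%) and 15 a reproducible one (18.5%). Of the 70 mitochondrial ribosomal protein genes, 43 (61.4%) and 1 (1.43%) did. That 1 gene was mrpl-23, and its summit (132.5, rank 114) was the one near the snoRNA gene T08B2.13 inside fars-1, described below. Of 20 other translation genes chosen by symbol, 15 (75%) and 3 (15%) did. Those 3 were larp-1, for an RNA-binding protein of the La-related family (signal value 156.3, rank 74, offset -670 bp), drr-2, for an initiation factor related to eIF4H (78.80, 141 bp upstream), and pab-1, for a poly(A)-binding protein (76.43, 108 bp upstream). All 3 summits also served another coding gene. That of larp-1 was closer to the start of wip-1 (offset -319 bp), that of drr-2 also served set-16, and that of pab-1 also served rpl-30. The eIF5B gene iffb-1 had no pooled summit. The counts of these sets are not separate, since some summits serve 2 of them. The ribosomal protein gene rps-1 was counted through the summit also given to ifet-1 (81.57, rank 418), and rpl-30 through that of pab-1.

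In the separate replicate lists, 20 of the 54 genes had a summit within 100 bp of the assigned one in each, 19 in replicate 1 only, 13 in replicate 2 only and 2 in neither. Of all coding genes with a pooled summit, 2561 of 7353 had a match in each. The 5 reproducible summits other than that of eef-1G were matched in both lists, as were 377 of the 401 over all coding genes. Over the 20 genes, Spearman's rho between the replicates' signal values was 0.53, and over the 2561 genes it was 0.58. These genes share the 2 libraries and were all chosen from the pooled list, so the correlations are descriptions. The typical gap between the replicates at 1 gene was 0.49 on the log2 scale (median of the absolute difference), against 0.38 over the 2561 genes. The widest gap of the 20 was at eif-3.B, where replicate 1 gave 9.793 (rank 18241) and replicate 2 gave 26.49 (rank 1266). These gaps assume that both replicate lists share a scale, which no label or file states.

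**Figure D3:**
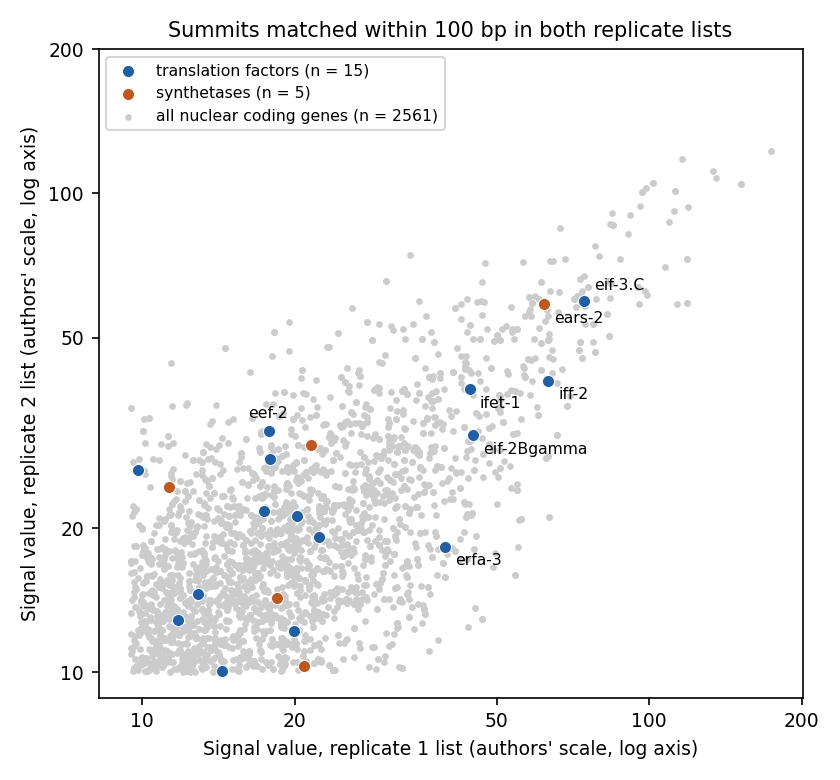
Signal values in the lists of replicate 1 and replicate 2 (log axes, authors' scale) for the 20 genes whose assigned summit was matched within 100 bp in both, over the 2561 such coding genes in grey. Points for eif-3.C, ears-2 and iff-2 stand at the upper right, and erfa-3 stands apart with 39.53 in replicate 1 and 18.29 in replicate 2.

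Of the 54 summits, 35 lay upstream of the nearest start of their gene (64.8%), against 58% over all coding genes with a summit. The order turned with the number of starts: 20 of 24 genes with 1 start (83.3%), against 57.6% of such coding genes, but 15 of 30 genes with several starts (50%), against 58.8%. The median position was -113.5 bp (quartiles -333.25 and 43.75 bp, negative values being upstream), against -95 bp. It was -276.5 bp, against -109.5 bp, at genes with 1 start and -1.5 bp, against -78 bp, at genes with several. With windows of 500 or 200 bp, or with each summit given only to its nearest start, the median of these genes was nearer the start than that of all coding genes or past it, so no lean upstream relative to other genes is reported. Within 100 bp of a start lay 15 of the 54 (27.8%), against 15.4%, and 9 of these 15 were at synthetase genes. At genes with 1 start the count was 3 of 24 (12.5%), against 13.2%, and at genes with several starts it was 12 of 30 (40%), against 18.9%. No coding gene covered 24 of the summits, 21 lay inside the gene itself, 8 inside another coding gene and 1 inside both kinds. Coding sequence held 15 (27.8%), against 25.9% over all coding genes. A second coding gene also had a start within 1000 bp of 28 of the 54 summits (51.9%), against 34.6%. At 15 of the 54 (27.8%), against 14.9%, the summit lay upstream of starts on both strands, as at ears-2, iff-2 and ifet-1. The nearest start of any gene was the gene's own at 39 of the 54 (72.2%), against 71.6%.

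**Figure D4:**
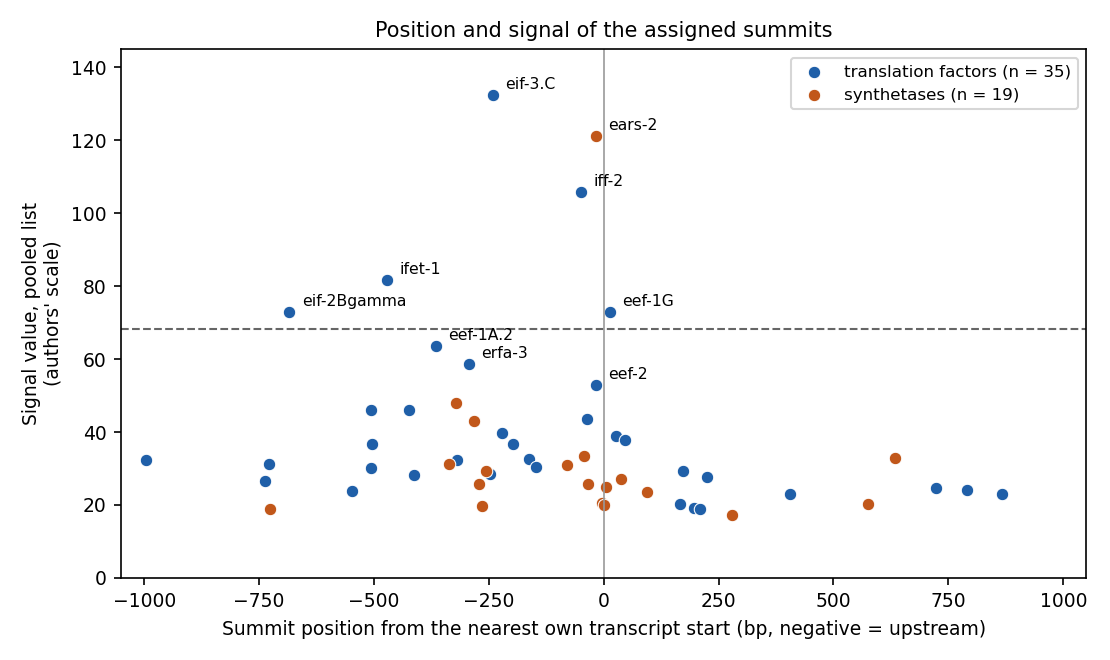
Position of each assigned summit relative to the nearest transcript start of its gene (horizontal axis, bp, negative values upstream) against its pooled signal value (vertical axis, authors' scale); the dashed line marks the lowest reproducible value, 68.23. Among summits inside the start, eef-1G is the highest with 72.88 and eef-1B.1 the next with 38.97.

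None of the 54 assigned summits, of which 6 were reproducible, had a tRNA or snoRNA gene within 300 bp. Of all coding genes, 271 of the 7353 with a pooled summit (3.69%) and 138 of the 401 with a reproducible one (34.4%) did. A share of 3.69% is only a few of 54 summits, and the 34.4% has only the 6 beside it. The absence is therefore not read as a trait of these genes. Only assigned summits were counted. The start window of eef-1G also held the reproducible summit inside F17C11.15 (69.32), 854 bp inside the start, but the summit with 72.88 was assigned. It was the only one of the 73 genes with any such summit in its window. No tRNA gene lay inside any of the 73 genes or within 1000 bp of their starts. In all, 6 snoRNA genes, whose products guide the modification of other RNAs, lay inside 4 of the genes: F17C11.14 and F17C11.15 in eef-1G, Y65B4A.10 and Y65B4A.11 in eif-4A3, T08B2.13 in fars-1 and F54C9.12 in iff-2. A reproducible summit was within 300 bp of 3 of the 6. They were the pair in eef-1G, given above, and T08B2.13. This snoRNA gene lies in an intron of fars-1, a phenylalanyl-tRNA synthetase gene, on chromosome I from 6212696 to 6212824. The summit at 6212834 had a pooled signal value of 132.5 (rank 114), next in rank to eif-3.C, with 74.65 in replicate 1 and 58.13 in replicate 2. It lay 1382 bp from the nearest fars-1 start, so fars-1 itself counted as having no summit, whereas mrpl-23 was given this summit. The snoRNA genes in eif-4A3 and iff-2 had no pooled summit within 300 bp. The fars-1 and eef-1G snoRNA sites were picked out after their values were seen.

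No pooled summit lay within 1000 bp of a start at 19 of the 73 genes. For 11 of them no list held any: dars-2, eif-2Bbeta, eif-3.F, eif-3.L, fars-1, fars-2, ife-5, lars-2, sars-2, wars-1 and yars-1. The other 8 had a summit in a replicate list alone, with signal values from 9.980 at hars-1 to 14.60 at iars-2. For 3 of these 8, iars-2, pars-2 and rars-2, both replicate lists had one. The median over a whole list was 12.99 in replicate 1 and 13.54 in replicate 2, and iars-2 stood above it in both (14.32 and 14.60).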

How the data were processed

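ChIP-seq of 2 biological replicates was available as peak lists, 4 on build ce11 and 4 on ce10. Per the text deposited with the files, the lists for single replicates and for both pooled contain peaks plus background made as IDR input, from the alignments and 1 further file, and a thresholded list was deposited beside them. Not given in the sources used here: the aligner, the caller and its settings, and the cutoff of IDR. The signal value of each region and its q-value as −log10 are the authors' own, as deposited. No read counts were used, so depth is unknown and no interval could be given.

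Coordinates are 1-based on ce11 (WBcel235), with Ensembl release 115 genes and the RefSeq genome of that assembly. On ce10 only the length of the reproducible list was used. The members, lists, motifs and alternatives were chosen with earlier results of these data known. Every gene was assigned its best summit within 1000 bp of its own starts, so 1 summit can serve several genes. Summits within 100 bp counted as matched between lists. No test was run: there is 1 group, and counts and medians are set beside those of all nuclear protein-coding genes. Genes named in full are those with a reproducible summit and the 10 with the highest signal without one; others were named after their values were seen. Python 3.11.15, pandas 2.3.3 and scipy 1.17.1 were used. The assignment was tested on simulated data with 1 start and 1 summit per gene, so several starts, competing summits and close neighbours were not covered.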

Additional observations from a re-analysis of the deposited data

How the results depend on the processing

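Each alternative changed 1 choice. The count of 6 genes with a reproducible summit was 3 with a window of 200 bp (ears-2, iff-2 and eef-1G), 3 with the reproducible list limited to the regions above its median (eif-3.C, ears-2 and iff-2), and between 4 and 7 under the others; eef-1A.2 entered when the list was lengthened to the 768 peaks of ce10, an alternative added after the data were seen. Among all coding genes the shares were 0.511% at 200 bp and 0.866% above that median, and the share of the 73 genes exceeded that of all coding genes in each setting, by 3.47 to 8.05 times. Where 1 replicate list alone stood in for the reproducible list the count was 5 to 7, and a summit counted there is not a reproducible one.

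The 54 genes with a pooled summit were 26 with a window of 200 bp (35.6%, against 14% of all coding genes), and 47 to 59 with 1 replicate list alone. The 44 genes in both replicate lists were 12 with a window of 200 bp (16.4% against 6.32%), 20 when a match within 100 bp was required (27.4% against 12.8%), and 47 to 59 where 1 list stood in for both.

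The median rank of 3994.5 was 4546.5 at 500 bp, 4381.5 at 200 bp, 5429 with the nearest start of any gene, 4561 with the nearest coding start, and 4218 to 4705 in the replicate lists, against 6372.5, 6483, 7222, 6778 and 6653 to 7159 over all coding genes. The median position of -113.5 bp, against -95 bp over all coding genes, was -46 bp against -74 bp at 500 bp and -1.5 bp against -37 bp at 200 bp. With each summit given only to the nearest start it was 2.5 bp against -1 bp for starts of any gene and 1 bp against -21 bp for coding starts. It was -225 bp against -159 bp from start codons, and -122 to -83 bp against -91 to -81 bp in the replicate lists. The order relative to all coding genes thus turned in 4 settings. The cause was not tested.

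The count of 0 summits with a tRNA or snoRNA gene within 300 bp was 1 in the replicate 1 list (0 to 1 over the replicate lists), where the eef-1G summit was the one in F17C11.15, and 3 within 1000 bp (iff-2, eef-1G and nars-1). No paired analysis was possible because there is 1 group.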
